A study of Mus musculus with 90 samples.

Results

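Oxt, Avp, Oxtr, Avpr1a, Trh, Crh, Ghrh and Sst, 8 of the 20414 genes in the expression matrix, were followed across all 90 libraries. They were chosen by name for their place in the peptide hormone output of the hypothalamus, and the rule that selects them uses no measured value. The mice were untreated females labelled as C57BL/6 and 10 weeks old, where the study's methods name the substrain C57BL/6J and a younger age. The cycle phase was read from methylene blue stained vaginal cells, and the study also measured serum estrogen and progesterone to help determine it. Each of 15 tissues was sampled from 3 mice in estrus and 3 in diestrus, so that every tissue gave 6 bulk libraries. The study asked how tissues differ between these phases.

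Oxytocin and vasopressin are sister peptides made in large neurons of the paraventricular and supraoptic nuclei, which send them down their axons to the posterior pituitary. Oxytocin drives uterine contraction and milk ejection, and vasopressin acts on kidney, liver and vessels. Thyrotropin-releasing hormone (Trh), corticotropin-releasing hormone (Crh) and growth hormone-releasing hormone (Ghrh) are carried by portal blood to the anterior pituitary, where somatostatin (Sst) restrains growth hormone. Somatostatin is also made by interneurons of the cortex and by endocrine D cells of the gut. Oxtr and Avpr1a encode receptors that couple to calcium release.

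Oxt and Avp lie on opposite strands of chromosome 2 and resemble each other closely, which bears on how their reads can be counted. The runs that encode the 9 residues of each hormone are shown because they are where the peptides part. Both lie in exon 1 (GRCm38, GENCODE annotation), at chr2:130576267-130576293 on the plus strand for Oxt and at chr2:130582446-130582472 on the minus strand for Avp, written 5′ to 3′ with differing bases in capitals.
Oxt: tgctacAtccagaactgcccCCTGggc
Avp: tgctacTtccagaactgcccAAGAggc
Of these 27 bases 5 differ. Counted from 1 at the 5′ end of the run, with the Oxt base first, the changes are A7T, C21A, C22A, T23G and G24A.

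Further along, in the part that encodes neurophysin, the carrier protein packed with each hormone, the transcripts were identical over 127 bases. The run starts in the last bases of exon 1 and ends within exon 2, which lies at chr2:130576591-130576792 in Oxt and at chr2:130581056-130581257 in Avp.
Oxt and Avp: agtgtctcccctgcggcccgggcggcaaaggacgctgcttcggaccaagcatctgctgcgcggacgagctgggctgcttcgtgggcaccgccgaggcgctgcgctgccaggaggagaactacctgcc
Across the 202 bases of exon 2, 193 were identical (95.5%). The shared run makes up 23.6% of the 537-base Oxt transcript and 22.0% of the 577-base Avp transcript. A read that lies wholly inside it cannot be assigned by sequence, so the division of reads between Oxt and Avp is an estimate.

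The precursor of TRH carries 5 copies of the tripeptide, and the 5 coding units are shown because they are what makes 1 Trh transcript yield several hormone molecules. All lie in exon 3 on the minus strand of chromosome 6 (GRCm38), and capitals mark the bases that encode the tripeptide with its amide-donating glycine.
chr6:92243088-92243105: CAGCATCCGGGCaaaagg
chr6:92242992-92243009: CAGCACCCTGGCcgacgt
chr6:92242857-92242874: CAGCACCCTGGCaggcga
chr6:92242803-92242820: CAGCATCCAGGCcggagg
chr6:92242710-92242727: CAGCATCCTGGCaaaagg
The bases in lower case encode the basic residues at which the precursor is cleaved.

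Values are FPKM as deposited, a measure scaled to transcript length and library size. Depth was not stored in the files, and from the steps between low values it was approximated at 8730000 to 17900000 reads (median 15500000) in 89 libraries. The library of brown adipose tissue (BAT) from estrus replicate 3 came to about 75200 reads, with 12048 genes at 0, and a single read there stood for several FPKM. In the hypothalamus, estrus replicate 2 held 21606.57 FPKM of Prl and 9199.62 of Gh, hormones of the anterior pituitary, against at most 261.63 and 95.73 in the other 5 libraries, and 9 pituitary genes summed to 31943 FPKM there against 43.3 to 401 FPKM. The hypothalamus label was met by all 9 of its marker genes, among them Hcrt at 229.87 to 359.86 FPKM and Pmch at 507.82 to 724.64 FPKM, which are neuropeptides of the lateral hypothalamus. In tissue RNA, fewer cells of a type and less RNA per cell cannot be told apart.

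A tissue was taken to contain enough of a gene for testing where its mean over the 6 libraries was at least 1 FPKM, which 30 of the 120 gene and tissue pairs met. Oxt, Avp, Trh and Crh met it in hypothalamus and cerebrum and in no other tissue. Ghrh met it in 4 tissues, Sst in 5, Avpr1a in 6 and Oxtr in 7. Avp was at 0 in all libraries of 7 tissues and Crh in all libraries of 9, whereas Avpr1a was above 0 in all 90 libraries.

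**Figure D1:**
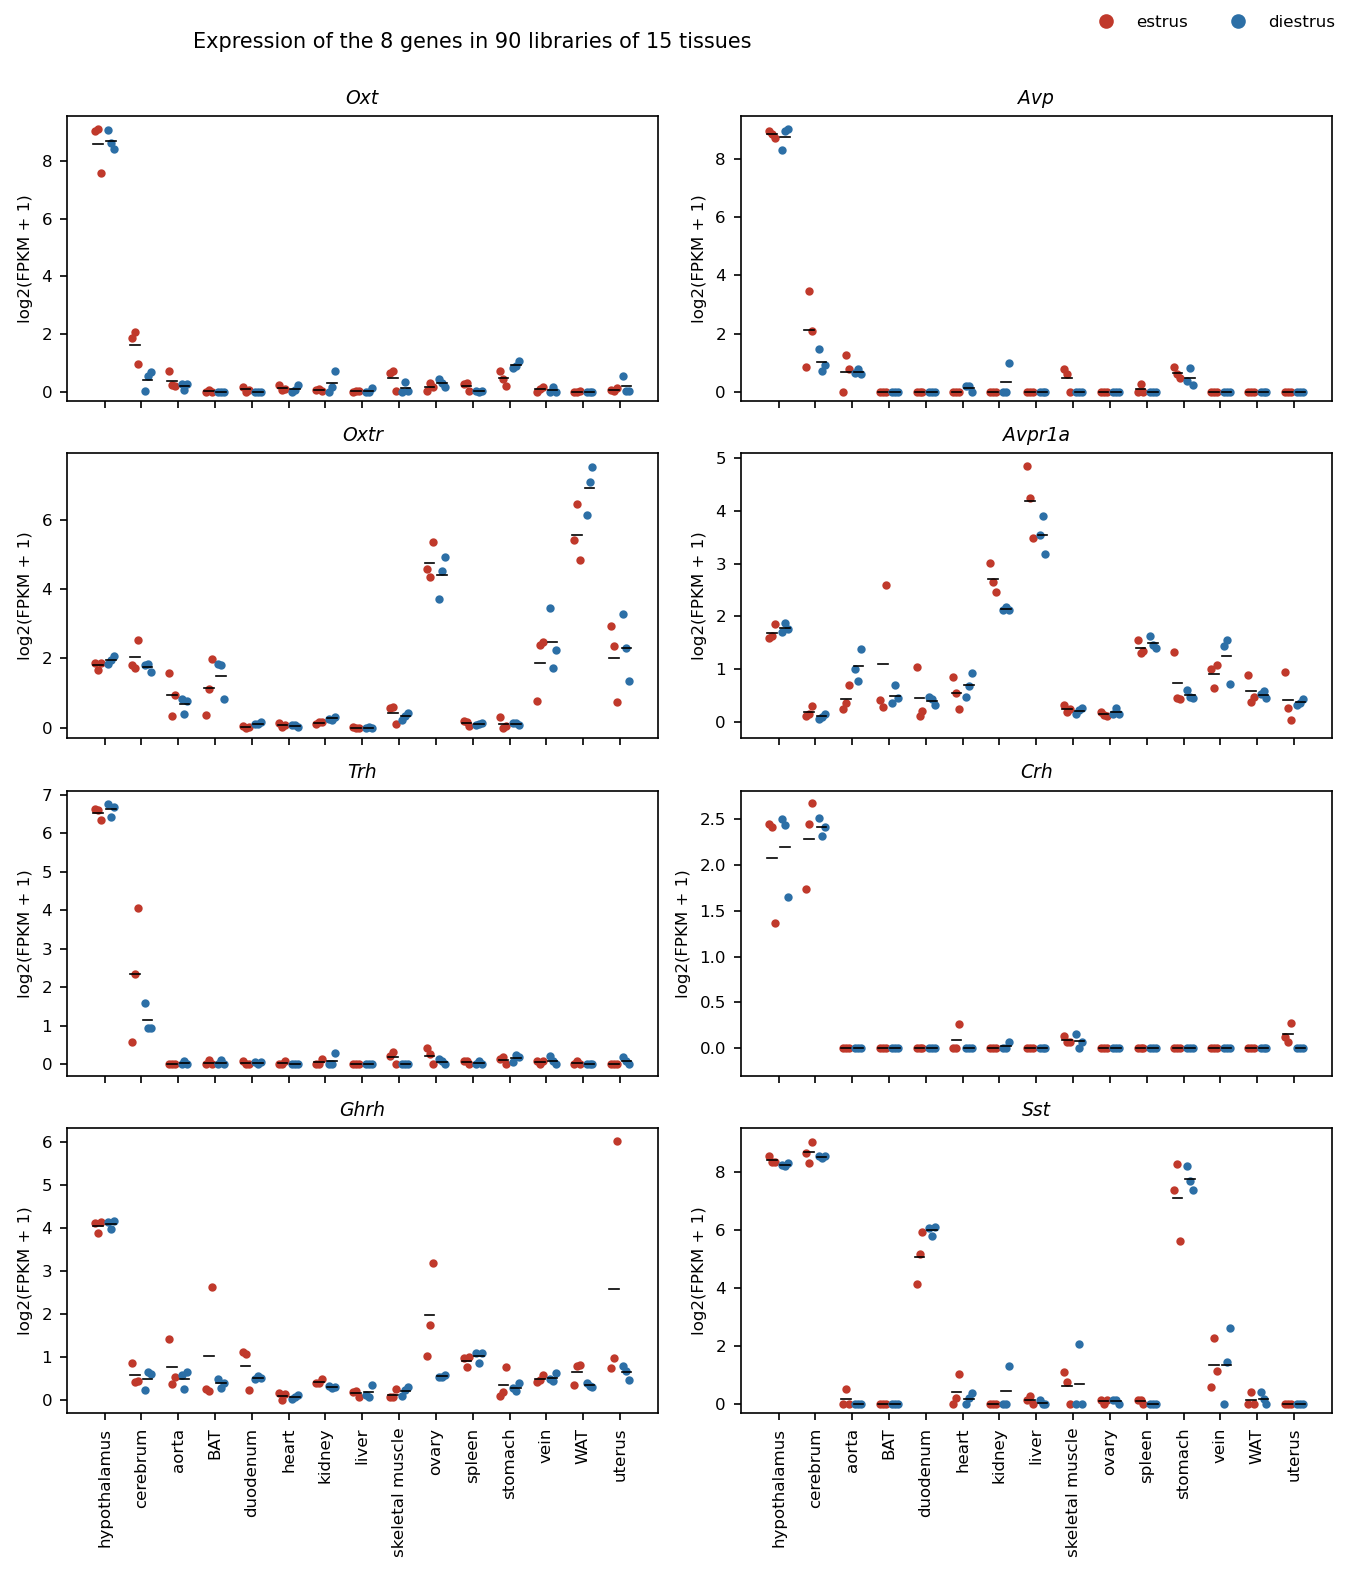
Each panel plots 1 gene as log2(FPKM + 1) in 15 tissues, with a point for each library (estrus red, diestrus blue) and a bar at the mean of the 3 libraries of a phase. Oxt, Avp and Trh stand high in hypothalamus alone, Oxtr in WAT and ovary, Avpr1a in liver and kidney, and Sst in brain, stomach and duodenum.

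Oxt stood at 520.88, 545.56 and 190.55 FPKM in the hypothalamus of the 3 mice in estrus and at 533.61, 394.09 and 337.15 FPKM in diestrus. The mean was 420 ± 141 FPKM (SD, n = 6), which placed Oxt at rank 85 of 13400 genes in that tissue. Estrus held both the highest and the lowest library, so the phases overlapped. The log2 fold change of estrus over diestrus, on the log2(FPKM + 1) scale used for all tests, was -0.13 (95% interval -1.01 to 0.75, adjusted p = 0.912, limma).

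Avp, whose peptide concentrates urine through the kidney, read 497.56, 454.54 and 417.71 FPKM in estrus and 310.36, 496.44 and 515.6 FPKM in diestrus. Its mean of 449 ± 76.5 FPKM (SD, n = 6) was close to that of Oxt. The lowest Avp library, diestrus replicate 1, was not the lowest Oxt library, estrus replicate 3. The ratio of Oxt to Avp thus ran from 0.456 in estrus replicate 3 to 1.72 in diestrus replicate 1. The phase difference of Avp was 0.08 (95% interval -0.33 to 0.50, adjusted p = 0.875, limma).

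Trh, which raises thyrotropin and prolactin, stood at 98.88, 96.77 and 80.42 FPKM in estrus and at 107.75, 85.27 and 101.97 FPKM in diestrus. The groups overlapped, and the difference of -0.09 (95% interval -0.33 to 0.15, adjusted p = 0.735, limma) was bounded more tightly than that of Oxt. Ghrh, made by arcuate neurons, read 16.45, 13.72 and 16.57 FPKM in estrus and 16.72, 14.68 and 17.02 FPKM in diestrus. It varied least of the 8 genes, with the highest hypothalamus library 1.24 times the lowest, and its phase difference was -0.05 (95% interval -0.25 to 0.15, adjusted p = 0.836, limma).

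Crh, the head of the adrenal stress axis, was low in hypothalamus, at 4.45, 4.35 and 1.57 FPKM in estrus and 4.67, 4.43 and 2.13 FPKM in diestrus. Both phases held 2 libraries above 4 FPKM and 1 near 2 or below, and the highest was 2.97 times the lowest. The difference was -0.12 (95% interval -0.88 to 0.64, adjusted p = 0.904, limma). Oxt and Crh, both of the paraventricular nucleus, had their lowest values in the same library, estrus replicate 3. That library also held 17.44 FPKM of Ucn, the CRH relative urocortin, against at most 0.30 in the other 5, and its Trh was the lowest of the 6 as well.

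Sst in hypothalamus was 379.54, 322.12 and 325.99 FPKM in estrus and 299.32, 296.62 and 315.61 FPKM in diestrus. The phases did not overlap, with every estrus library above every diestrus library. The difference was small, at 0.17 (95% interval 0.01 to 0.33), and did not pass after adjustment (adjusted p = 0.357, limma), in a tissue where 19.6% of all genes tested did not overlap between phases. For the receptors, Oxtr ran from 2.2 to 3.19 FPKM and Avpr1a from 2.01 to 2.68 FPKM over the 6 libraries. Their phase differences were -0.16 (95% interval -0.38 to 0.05) for Oxtr and -0.09 (95% interval -0.32 to 0.15) for Avpr1a.

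Estrus replicate 2 of hypothalamus, the library with pituitary RNA, had the highest Oxt of the 6 and the lowest Ghrh, while its Trh, Avp and Sst lay inside the range of the others. Without estrus replicate 2 the Avp difference was 0.08. Leaving out each replicate in turn moved Oxt between -0.39 and 0.36 and Crh between -0.40 and 0.24, so the sign of neither was fixed by these libraries.

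Members of the same systems that were listed beside the 8 genes were examined in the same way in hypothalamus. The lists held 15 receptors, binding proteins and degrading enzymes, 4 related ligands, 10 genes of precursor processing and secretion, and 9 transcription factors of the neurons. In hypothalamus 13, 2, 10 and 9 of them were tested between phases and 0 passed by limma, with 2, 0, 1 and 1 at an unadjusted p under 0.05, which 13.2% of all genes tested there met. The median log2 fold changes of the lists were 0.01, 0.49, -0.01 and -0.08, against 0.01 over all genes tested. The value of 0.49 rests on 2 genes, of which Ucn passed the minimum through estrus replicate 3.

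The highest receptors and binding proteins in hypothalamus were the somatostatin receptors Sstr1 (8.73 ± 0.419 FPKM) and Sstr2 (7.71 ± 0.973 FPKM) and the CRH-binding protein Crhbp (6.27 ± 0.853 FPKM, SD, n = 6 each). Carboxypeptidase E (Cpe), which trims peptide precursors, reached 737 ± 26.4 FPKM, above the level of every member. The transcription factor Otp, needed for neurons of the paraventricular nucleus, stood at 28.3 ± 1.98 FPKM. The GHRH receptor Ghrhr, which marks pituitary somatotrophs, was at 7.56 FPKM in estrus replicate 2 and at most 0.08 FPKM in the other 5 libraries.

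To see which of the 8 genes set the hypothalamus apart within the brain, its 6 libraries were compared with the 6 of cerebrum in 1 limma fit that took the phase into account. A gene was called where its log2 fold change was at least 1 and its adjusted p at most 0.05. All 8 genes were tested and 5 were called, all higher in hypothalamus, against a background of 8.98% of 13280 genes called in either direction and 4.73% called higher. Avpr1a and Ghrh reached the test through the hypothalamus libraries alone, since their cerebrum means were below 1 FPKM. Over all genes the median difference was 0.17, and of the genes called 52.6% were higher in hypothalamus, which turned to 38.6% with median-ratio scaling of the libraries. The same 5 genes were called with that scaling.

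**Figure D2:**
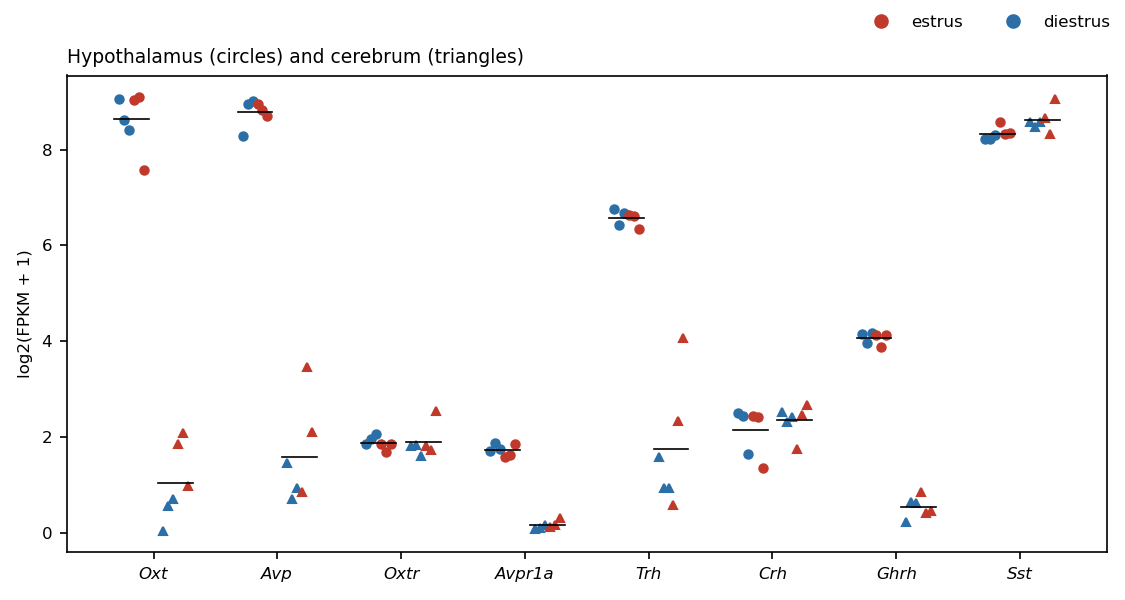
Points show log2(FPKM + 1) of the 8 genes in 6 hypothalamus libraries (circles) and 6 cerebrum libraries (triangles), coloured by phase, with bars at the means of each tissue. Oxt, Avp, Trh, Avpr1a and Ghrh separate the tissues, while Oxtr, Crh and Sst lie at similar levels in both.

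Oxt in cerebrum read 2.61, 3.24 and 0.97 FPKM in estrus and 0.03, 0.47 and 0.62 FPKM in diestrus. Its hypothalamus mean was 318 times its cerebrum mean, and the difference was 7.60 ± 0.328 (SE, adjusted p = 1.23e-09, limma). Avp in cerebrum stood at 0.8, 9.98 and 3.27 FPKM in estrus and at 1.75, 0.64 and 0.91 FPKM in diestrus, with a difference of 7.21 ± 0.363 (SE, adjusted p = 4.52e-09, limma). No cerebrum library came near the lowest hypothalamus library of either gene.

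Trh was far lower in cerebrum but uneven there, at 0.5, 4.07 and 15.74 FPKM in estrus and 2, 0.91 and 0.9 FPKM in diestrus. Its difference between the tissues was 4.84 ± 0.458 (SE, adjusted p = 1.07e-06, limma). Ghrh ran from 0.17 to 0.81 FPKM in cerebrum, a difference of 3.54 ± 0.0990 (SE, adjusted p = 5.31e-11, limma). Avpr1a was at 0.05 to 0.23 FPKM in cerebrum, a difference of 1.58 ± 0.0732 (SE, adjusted p = 2.25e-09, limma). For these 3 genes, too, the libraries of the tissues did not overlap, as was so for 50.2% of all genes tested.

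Crh, Sst and Oxtr were not set apart. Crh in cerebrum read 2.34, 4.46 and 5.39 FPKM in estrus and 4.71, 3.97 and 4.34 FPKM in diestrus, and its difference was -0.21 (95% interval -0.69 to 0.26, adjusted p = 0.393, limma). Sst, an interneuron peptide in cortex, stood at 402.86, 319.53 and 531.2 FPKM in estrus and 378.9, 353.95 and 379.98 FPKM in diestrus, where it ranked 84 among the genes of cerebrum. Sst was lower in hypothalamus by -0.27 (95% interval -0.48 to -0.06, adjusted p = 0.0219, limma), a difference below the size needed for a call. Oxtr ran from 2.02 to 4.83 FPKM in cerebrum and differed by -0.01 (95% interval -0.31 to 0.29, adjusted p = 0.960, limma).

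Among the listed genes of the same systems, 32 could be tested between the tissues and 12 were called, 9 higher and 3 lower in hypothalamus, beside the 8.98% of all genes called in either direction and the 4.73% called higher. Otp, Hmx3, Sim1, Gsx1 and Ucn3 had cerebrum means below 1 FPKM and reached the test through the hypothalamus libraries alone. The transcription factors Otp, Hmx3, Sim1 and Gsx1 were higher, by 4.56, 2.49, 1.96 and 1.16. Otp and Sim1 are required for oxytocin, vasopressin, TRH and CRH neurons, and Gsx1 for GHRH neurons. Secretogranin Scg2 (2.35), glutaminyl cyclase Qpct (1.65), which caps the TRH tripeptide, and Cd38 (1.49), which is needed for oxytocin release, were also higher, as was urocortin 3 (Ucn3, 1.49). The amidating enzyme Pam was called at 1.04 but fell short of the size for a call with median-ratio scaling and without estrus replicate 2 or diestrus replicate 1.

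The 3 genes called lower in hypothalamus are best known from cortical interneurons and the somatostatin system. Cortistatin (Cort), the somatostatin-like peptide of cortical interneurons, differed by -2.65, the somatostatin receptor Sstr4 by -1.72 and Lhx6, a transcription factor of interneurons, by -1.11. Cort reached the test through the cerebrum libraries alone, and Lhx6 was not called without estrus replicate 3. All the adjusted p-values of these 12 genes were at most 0.00131 (limma). By list, 1 of 11 receptors and enzymes, 2 of 3 related ligands, 4 of 10 processing genes and 5 of 8 transcription factors were called.

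Within cerebrum, Oxt, Avp and Trh all had higher means in estrus, though only for Oxt did the phases not overlap, as was so for 7.8% of all genes tested there. Oxt differed by 1.21 (95% interval 0.47 to 1.94, adjusted p = 1.00, limma), Avp by 1.10 (95% interval -0.32 to 2.52) and Trh by 1.18 (95% interval -0.67 to 3.04). None passed after adjustment. The diestrus mean of Oxt was below 1 FPKM, so the estrus libraries alone brought it to the test. Estrus replicate 2 had the most Avp and Oxt, and it also held the most Pmch of the 6 libraries (16.78 FPKM against at most 2.1), the most Nkx2-1 (1.89 FPKM) and the most Otp (0.75 FPKM), genes of the hypothalamus.

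The summed hypothalamus marker genes came to 26.57 FPKM in cerebrum estrus replicate 2 and to 2.26 to 6.37 FPKM in the other 5. They came to 3.16 FPKM in estrus replicate 1, whose Oxt of 2.61 FPKM was the next highest. The pituitary genes summed to 395.4 FPKM in estrus replicate 2 and to 12.86 to 93.63 FPKM in the other 5. Trh followed another library, estrus replicate 3, in which the choroid plexus genes summed to 738.32 FPKM against 31.45 to 353.99 elsewhere. Without estrus replicate 2 the Avp difference fell to 0.44, and without estrus replicate 1 it was 1.74. The part of the dissection in these values was not tested. When all 90 libraries shared 1 estimate of the spread, Oxt, Avp and Trh in cerebrum were called.

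Outside the brain the 4 peptides Oxt, Avp, Trh and Crh were near or at 0. Over the 78 libraries of the other 13 tissues the highest values were 1.12 FPKM for Oxt (stomach), 1.38 for Avp (aorta), 0.33 for Trh (ovary) and 0.21 for Crh (uterus). Oxt was above 0 in 54 of these libraries, Trh in 30, Avp in 17 and Crh in 10. In stomach, which followed cerebrum, Oxt stood at 0.67, 0.38 and 0.15 FPKM in estrus and 0.79, 0.87 and 1.12 FPKM in diestrus. Those ranges did not overlap, at a level too low for the test.

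In some libraries of kidney and skeletal muscle, low values of these peptides or of Sst stood beside a higher neuronal gene. Kidney diestrus replicate 3 held 0.66 FPKM of Oxt, 0.98 of Avp and 1.52 of Sst, with Avp and Sst at 0 in the other 5 kidney libraries. The synaptic gene Snap25 was at 3.05 FPKM in that library and at most 0.16 in the others, and the 8 neuronal genes summed to 7.47 FPKM against 1.16 to 1.94 FPKM. In skeletal muscle Snap25 was at 2.67, 3.37 and 4.72 FPKM in estrus replicates 1 and 2 and diestrus replicate 2, the same 3 libraries in which Sst was above 0, at 1.18, 0.69 and 3.19 FPKM. The neuronal genes of muscle summed to 7.44, 7.92 and 11.63 FPKM in those libraries and to 1.21 to 3.84 FPKM in the other 3. Oxt was also highest in the muscle libraries with Sst, at 0.57, 0.65 and 0.27 FPKM. Avp and Trh, however, were at 0 in muscle diestrus replicate 2. In vein, with neuronal sums of 543 to 1188 FPKM, Avp was at 0 in all 6 libraries. The part of neuronal genes in these values was not tested.

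The smallest Oxt value above 0 was 0.03 FPKM, below the smallest for Avp of 0.14 FPKM, although the annotated transcripts compared above are of similar length. By the approximated depth a single read of a transcript as long as Avp stood for about 0.11 FPKM in brain libraries. Reads were approximated only for genes with a single transcript, which left out Oxt. Whether its low values are whole reads was therefore not tested.

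Oxtr, the oxytocin receptor, was highest not in the uterus but in white adipose tissue (WAT). It stood there at 41.81, 85.95 and 27.62 FPKM in estrus and 68.63, 135.87 and 184.36 FPKM in diestrus, a mean of 90.7 ± 59.5 FPKM (SD, n = 6). Ovary followed with 22.85, 19.3 and 39.74 FPKM in estrus and 12.22, 21.88 and 29.66 FPKM in diestrus. The ranges of WAT and ovary overlapped, whereas every ovary library lay above every uterus library.

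Uterus, vein, cerebrum, hypothalamus and BAT came next, with means of 4.26, 4.23, 2.79, 2.69 and 1.70 FPKM and overlapping ranges from each to the next. The BAT mean includes the shallow estrus replicate 3, in which a single read stood for several FPKM. In the other 8 tissues the mean was below 1 FPKM.

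In uterus, the textbook target of oxytocin, Oxtr read 6.57, 4.12 and 0.67 FPKM in estrus and 8.7, 3.95 and 1.53 FPKM in diestrus. Both phases thus ran from a high to a low library. The difference was -0.30 (95% interval -1.94 to 1.33, adjusted p = 0.934, limma), an interval wide enough for a change of more than 2-fold either way. Smooth muscle genes, 8 of 8 above the minimum, summed to 5966, 1568 and 1264 FPKM in estrus and 1986, 1405 and 3778 FPKM in diestrus. The lowest Oxtr library, estrus replicate 3, had the lowest smooth muscle sum, but diestrus replicate 3 combined a high sum with low Oxtr.

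Uterus estrus replicate 3 stood apart from the other uterus libraries. It held 568 FPKM of Krt5 and 156 of Krt14, keratins of squamous epithelium, against at most 26.2 and 5.16 elsewhere. It also held 2554 FPKM of the oviduct glycoprotein Ovgp1 and 155 of the cilia regulator Foxj1, against at most 126 and 4.62. Without that library the Oxtr difference in uterus was 0.33, so its sign turned.

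In WAT, Oxtr was lower in estrus by -1.35 (95% interval -2.46 to -0.24, adjusted p = 0.791, limma), with overlapping phases. It remained negative without each replicate in turn, between -1.79 and -0.99. WAT estrus replicate 1 held 685 FPKM of the smooth muscle actin Acta2 against 32.4 to 77.9 in the other 5, and the 8 smooth muscle genes summed to 3140 FPKM against 148 to 337 FPKM. The casein genes Csn2 and Csn3, which mark secretory mammary epithelium, were at 0 in all 6 WAT libraries, and the whole list of 9 mammary genes summed to 3.14 to 5.83 FPKM, with 1 of them at a mean of at least 1 FPKM. The adipocyte hormone Adipoq was at 2299 to 3382 FPKM throughout.

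Ovary and vein showed no call for Oxtr either. The ovary difference was 0.36 (95% interval -0.50 to 1.22, adjusted p = 0.906, limma). Vein read 0.69, 4.24 and 4.56 FPKM in estrus and 9.9, 2.32 and 3.69 FPKM in diestrus, a difference of -0.60 (95% interval -1.97 to 0.78). All 6 vein libraries held the neuronal genes Snap25, at 113 to 232 FPKM, and Syt1, at 45.7 to 115 FPKM, and 6 of 8 neuronal genes reached a mean of 1 FPKM.

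Avpr1a, the vasopressin receptor of liver and vessels, was highest in liver, at 27.68, 17.9 and 10.14 FPKM in estrus and 10.63, 13.96 and 8.05 FPKM in diestrus. Kidney followed at 7.11, 5.27 and 4.53 FPKM in estrus and 3.36, 3.55 and 3.33 FPKM in diestrus. Liver lay wholly above kidney and kidney wholly above hypothalamus, while hypothalamus (2.34 FPKM), spleen (1.74 FPKM) and vein (1.17 FPKM) overlapped in turn. In kidney the phases did not overlap, as was so for 7.98% of all genes tested there, and the difference was 0.57 (95% interval 0.21 to 0.93, adjusted p = 1.00, limma).

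The liver difference had the same sign, 0.65 (95% interval -0.18 to 1.48, adjusted p = 0.811, limma), with diestrus replicate 2 and diestrus replicate 1 above the lowest estrus library. The Avpr1a value of 5.03 FPKM in BAT estrus replicate 3 corresponded to about 1 read in that shallow library, against 0.22 to 0.62 FPKM in the other 5. Its BAT difference of 0.59 therefore rests on 1 read.

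**Figure D3:**
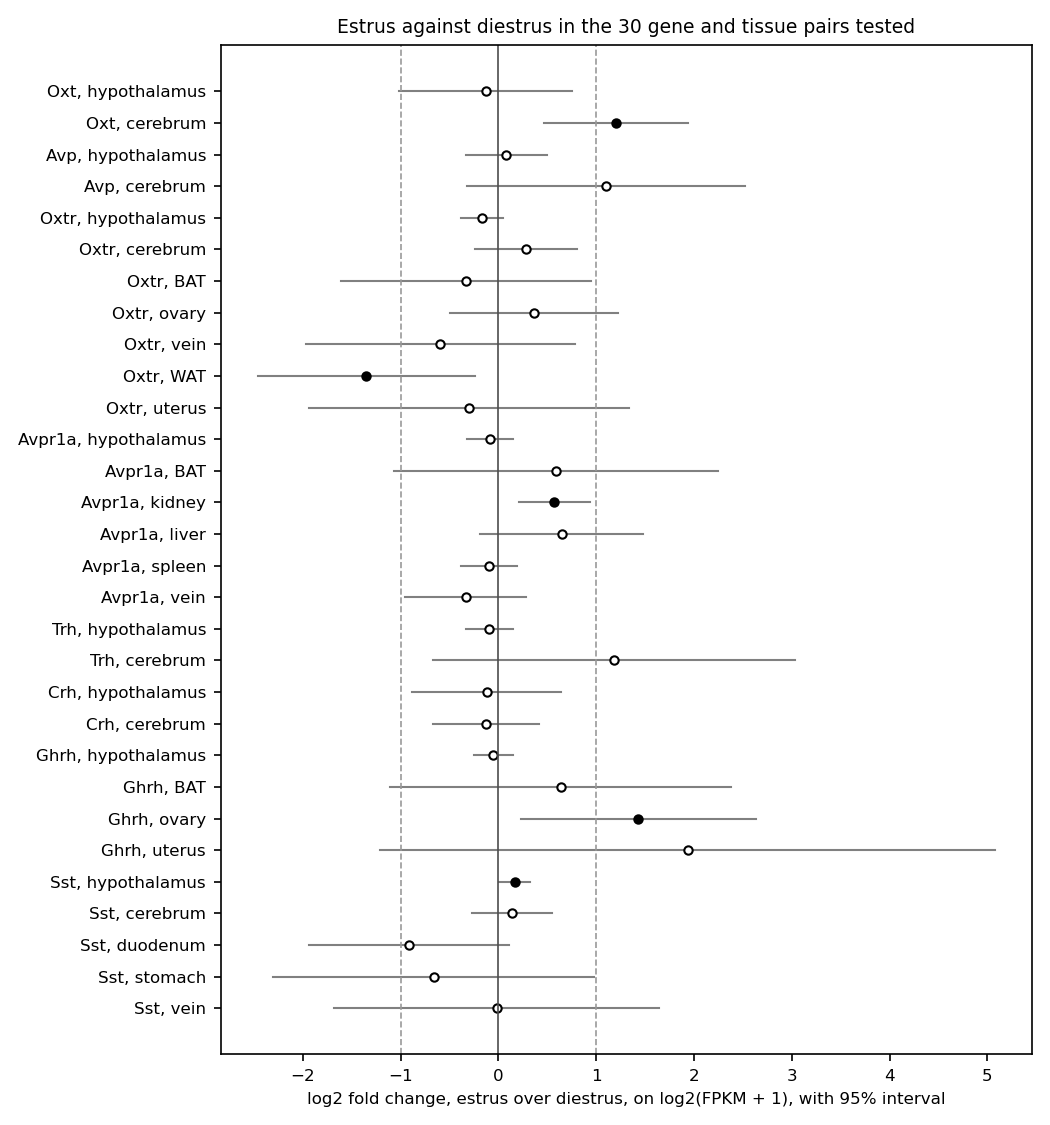
Points give the log2 fold change of estrus over diestrus for the 30 gene and tissue pairs tested, with bars for the 95% interval and dashed lines at the size needed for a call. Filled points mark an unadjusted p under 0.05 (5 of 30), and no pair passed after adjustment.

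Over all tissues 0 of the 30 pairs were called between the phases by limma, against 0.00108% of 185469 gene and tissue pairs over all genes. Among the 30 pairs, Oxt in cerebrum (0.37 FPKM in diestrus) and Ghrh in ovary (0.47 FPKM) met the minimum through estrus. So did Ghrh in uterus (0.57 FPKM in diestrus) and BAT (0.31 FPKM) and Avpr1a in BAT (0.43 FPKM). Avpr1a in vein met it through diestrus (0.90 FPKM in estrus). Such selection favours a difference, and all these pairs count in the shares that follow. At an unadjusted p under 0.05 there were 5 pairs (16.7%), against 7.84% over all genes. These were Oxt in cerebrum, Avpr1a in kidney, Oxtr in WAT, Ghrh in ovary and Sst in hypothalamus. The phases did not overlap in 4 pairs (13.3%), those same pairs without Oxtr, against 15% over all genes, so the share was near the background. All 4 were higher in estrus, where 5.66% of all gene and tissue pairs lay. Of the 90 pairs below the minimum, Oxt in stomach, Oxtr in duodenum and kidney, and Avpr1a in aorta were lower in estrus without overlap. Ghrh in kidney and Crh in uterus were higher without overlap. Both directions thus occurred below the minimum, but at values too low to weigh, such as Crh in uterus. It was at 0.05 to 0.21 FPKM in estrus and at 0 in diestrus. No share over all genes was computed below the minimum.

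The listed genes of the same systems gave 0 calls in 175 gene and tissue pairs. At an unadjusted p under 0.05 there were 18 (10.3%, against 7.84% over all genes), 4 of them higher in estrus and 14 lower. Of these 18, 6 were in vein, where 1597 of all 13239 genes tested met that p. The 6 in vein included the prohormone convertases Pcsk1 (-0.68) and Pcsk2 (-0.40), which cut the peptide precursors, and the amidating enzyme Pam (-0.58). Vein as a whole leaned the same way, with 33% of all genes tested above 0 (median -0.10). That share turned to 51.4% with median-ratio scaling of the libraries. The neuronal genes summed to 1067, 558 and 543 FPKM in the vein of mice in estrus and to 1123, 873 and 1188 FPKM in diestrus, and their part in these differences was not tested.

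Ghrh had its highest value of all 90 libraries outside the hypothalamus. In uterus it read 0.69, 0.97 and 63.54 FPKM in estrus and 0.73, 0.61 and 0.38 FPKM in diestrus. In ovary it read 1.04, 2.35 and 8.06 FPKM in estrus and 0.46, 0.45 and 0.49 FPKM in diestrus. In both organs estrus replicate 3 was the high library, and in ovary alone did the other estrus libraries also lie above all diestrus libraries, a separation that 13.7% of all genes tested in ovary had.

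The same libraries were high in genes of the oviduct. The 8 oviduct and ciliated epithelium genes, a list made after these values were seen, summed to 3504 FPKM in uterus estrus replicate 3 and to 110 to 269 FPKM in the other 5 uterus libraries. In ovary they summed to 44.5, 83.7 and 1886 FPKM in estrus and 35.5, 42.5 and 34.8 FPKM in diestrus. Within the ovary libraries in estrus, Ghrh and this sum took the same order. In diestrus the order was reversed, with Ghrh at 0.45 to 0.49 FPKM. In uterus, diestrus replicate 2 had the next highest sum, 269 FPKM, but 0.61 FPKM of Ghrh. The part of oviduct tissue in the Ghrh values was not tested.

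**Figure D4:**
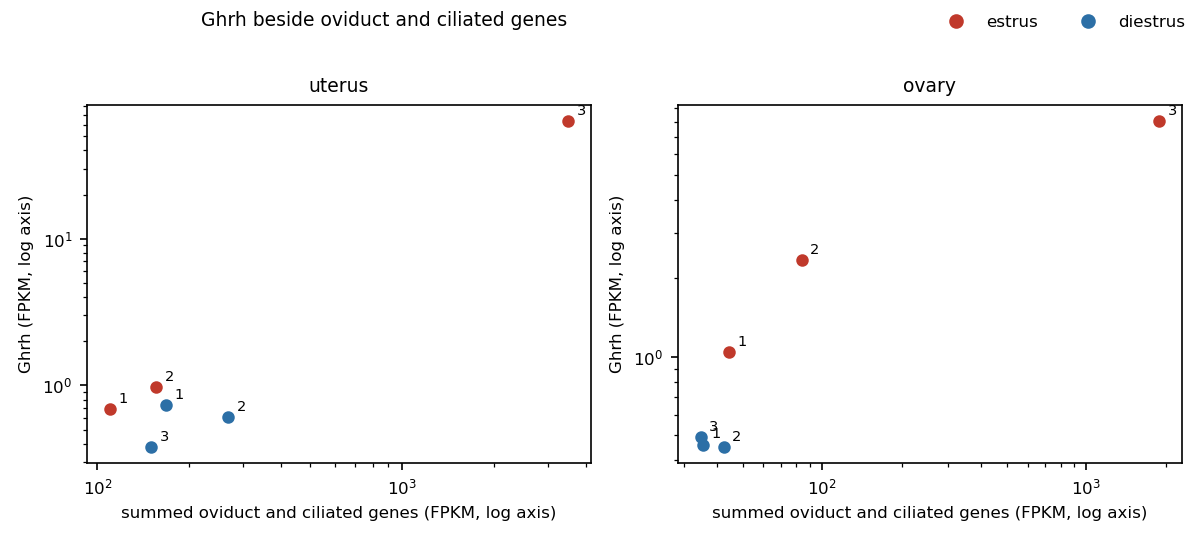
Each point is a library of uterus (left) or ovary (right), numbered by replicate and coloured by phase, with the summed FPKM of 8 oviduct and ciliated genes on the x axis and Ghrh FPKM on the y axis, both on log axes. Estrus replicate 3 stands far to the upper right in both organs, at 63.54 FPKM of Ghrh in uterus and 8.06 in ovary.

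The phase difference of Ghrh was 1.43 in ovary (95% interval 0.23 to 2.63, adjusted p = 0.826, limma) and 1.93 in uterus (95% interval -1.21 to 5.08, adjusted p = 0.897). Both tissues reached the test through estrus replicate 3, without which their means fell below 1 FPKM. Uterus was called when all 90 libraries shared 1 estimate of the spread. In BAT the value of 5.18 FPKM came again from the shallow estrus replicate 3, against at most 0.4 FPKM in the other 5 libraries. Spleen was steady at 0.71 to 1.15 FPKM.

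Sst was the most widely abundant of the peptides. After cerebrum and hypothalamus came stomach, at 166.19, 313.6 and 48.94 FPKM in estrus and 296.07, 207.29 and 167.39 FPKM in diestrus, and duodenum, at 16.63, 35.36 and 60.09 FPKM in estrus and 67.15, 54.77 and 67.87 FPKM in diestrus. Cerebrum overlapped with hypothalamus and hypothalamus with stomach, whereas duodenum lay wholly above vein, the fifth tissue, at 0 to 5.21 FPKM.

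The run that encodes somatostatin-14, the peptide of 14 residues shared by these tissues, lies in exon 2 of Sst at chr16:23889732-23889773 on the minus strand (GRCm38).
Sst: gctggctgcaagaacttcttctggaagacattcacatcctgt
Gene totals do not show whether this form or the longer somatostatin-28 is cut from the precursor.

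In stomach Sst moved with other endocrine genes of the gut wall. Ghrelin (Ghrl), the hunger hormone of the stomach, read 543, 1036 and 231 FPKM in estrus and 942, 833 and 665 FPKM in diestrus. Estrus replicate 3 was the lowest and estrus replicate 2 the highest library for both genes. Gastrin (Gast), made in the antrum, was at most 1.34 FPKM. The 9 gut endocrine genes, 4 of them at a mean of at least 1 FPKM, summed to 258 to 1148 FPKM in estrus and 725 to 1043 FPKM in diestrus. Ghrl made up most of each sum.

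Duodenum was alike only in part, since Sst did not take the order of the summed gut endocrine genes there. Estrus replicate 3 held more Sst than diestrus replicate 2 at a lower sum. Cholecystokinin (Cck) read 14.28, 27.18 and 42.08 FPKM in estrus and 59.4, 42.42 and 48.83 FPKM in diestrus, and Gip ran from 27.38 to 81.58 FPKM, with estrus replicate 1 the lowest for both and for Sst. The 9 gut endocrine genes, 7 of them at a mean of at least 1 FPKM, summed to 114, 128 and 176 FPKM in estrus and 222, 186 and 191 FPKM in diestrus, without overlap. Duodenum as a whole leaned the same way, with 32.8% of all genes tested above 0 (median log2 fold change -0.16). That share turned to 49.1% with median-ratio scaling of the libraries. Of the 8 pancreatic islet genes 3 reached a mean of 1 FPKM in duodenum, and the list summed to 31.1 to 87.4 FPKM with insulin (Ins2) at most 0.41 FPKM. Duodenum estrus replicate 1, the lowest Sst library, held 71.2 FPKM of summed pancreatic acinar genes against 4.38 to 11.2 FPKM in the other 5, and the part of pancreatic RNA in its Sst value was not tested. The phase differences of Sst were -0.66 in stomach (95% interval -2.31 to 0.98, adjusted p = 0.732, limma) and -0.91 in duodenum (95% interval -1.93 to 0.10, adjusted p = 0.381, limma). Whether the share of endocrine cells in a piece of gut set these values was not tested.

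**Figure D5:**
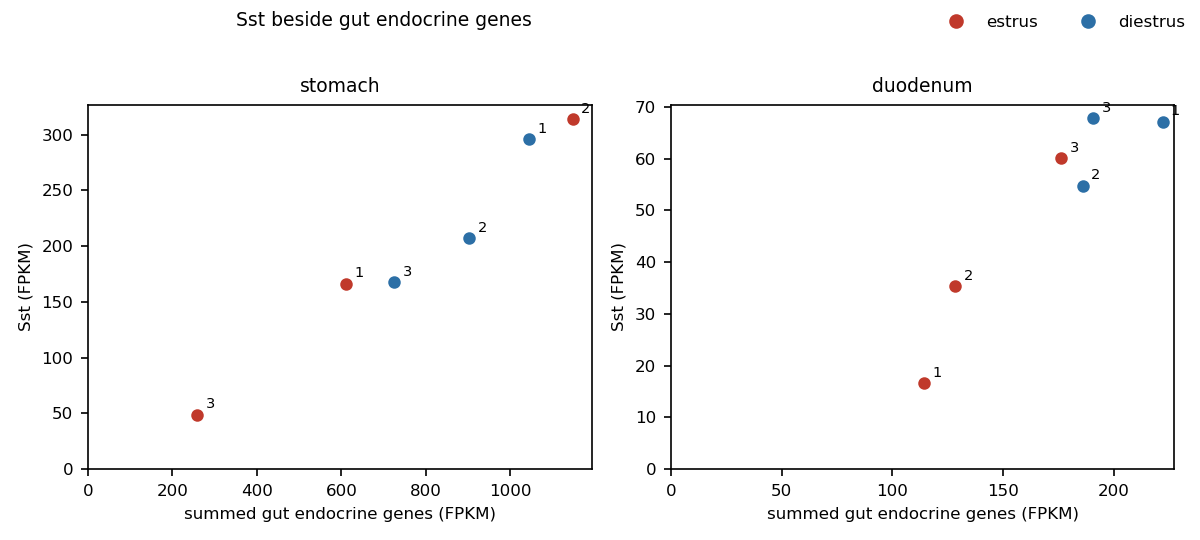
Points are libraries of stomach (left) and duodenum (right), numbered by replicate and coloured by phase, with the summed FPKM of 9 gut endocrine genes on the x axis and Sst FPKM on the y axis. In stomach Sst takes the order of the sum, from 48.94 FPKM in estrus replicate 3 to 313.6 FPKM in estrus replicate 2.

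Upstream sequence was examined because Oxt is known to respond to nuclear hormone receptors and Sst to cyclic AMP. RefSeq (GRCm38.p6) gave the 250 bases before the gene start for 7 of the 8 genes, without Crh. TGACC, the half-site that nuclear hormone receptors bind, was counted on both strands, so that GGTCA counts as well. Oxt held 5, which 0.0426% of 32851 promoters reach, while 35.2% hold at least 1. The Oxt sequence, at chr2:130575919-130576168 on the plus strand, is shown with the half-sites in capitals.
Oxt: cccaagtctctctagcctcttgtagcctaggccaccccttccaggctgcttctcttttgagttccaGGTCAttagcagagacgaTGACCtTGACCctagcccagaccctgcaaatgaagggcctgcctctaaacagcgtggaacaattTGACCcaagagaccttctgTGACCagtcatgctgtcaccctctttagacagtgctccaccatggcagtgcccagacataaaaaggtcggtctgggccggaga
Avp, Avpr1a and Sst held 0 in their windows, and Trh, Oxtr and each of the 2 Ghrh starts held 1.

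The Sst window, at chr16:23890845-23891094 on the minus strand, held the palindrome TGACGTCA, the cyclic AMP response element, shown in capitals. It occurs in 1.55% of the promoters and contains no TGACC.
Sst: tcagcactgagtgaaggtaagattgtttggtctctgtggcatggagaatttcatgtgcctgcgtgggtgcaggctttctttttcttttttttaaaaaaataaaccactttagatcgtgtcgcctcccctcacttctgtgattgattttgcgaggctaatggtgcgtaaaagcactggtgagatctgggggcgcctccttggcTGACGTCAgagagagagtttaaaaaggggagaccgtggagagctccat
None of the other 6 matched genes held it. These are matches of letters and not measured binding.

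The genes whose levels were most like those of each member were sought among 17209 genes by Pearson's r of log2(FPKM + 1) over the 90 libraries. Such a value mostly describes which tissues share a gene, since 6 libraries come from each tissue. Oxt was most like Irs4, Otp and Hcrt (r = 0.99 each), and Avp like Dgkk, Otp and Irs4 (0.99, 0.98 and 0.98). Irs4 stood at 23.1 FPKM in hypothalamus and below 0.4 FPKM on average in every other tissue. Trh was most like Gpr101, 6430628N08Rik and Vax1 (0.99, 0.99 and 0.98) and Crh like the neuronal genes Lrfn5, Lrrtm2 and Nol4 (0.98 each).

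The remaining members followed less specific partners. Oxtr was most like Tenm4, Apcdd1 and Gm525 (0.85, 0.80 and 0.80), and Tenm4 was highest in ovary (62.8 FPKM) and next in WAT (31.1 FPKM), the reverse of Oxtr. Avpr1a was most like Qprt, Slc6a12 and Ido2 (0.87, 0.86 and 0.85), and Qprt was highest in liver (64.3 FPKM) and kidney (29.9 FPKM). Ghrh was most like Cfap46, Barhl1 and 1700012B09Rik (0.91 each), and Cfap46, a cilia gene, reached 21.06 FPKM in 1 uterus library and 3.89 FPKM in 1 ovary library. Sst was most like Chga, Bcas1 and Atp8a2 (0.92, 0.92 and 0.90), of which chromogranin A (Chga) is shared by neurons and gut endocrine cells.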

How the data were processed

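Total RNA of 90 mouse tissue samples was sequenced on BGISEQ-500. According to the study's methods and the submitters' processing notes, the authors filtered reads with SOAPnuke, aligned them with Bowtie2 2.2.5 to GRCm38.p5 and quantified them with RSEM 1.2.8. The deposited table holds FPKM values per Entrez gene, a unit taken from the study's methods and from the values, without counts, so depth could only be approximated and no counting interval is given. Symbols came from RefSeq (GRCm38.p6) for 20265 of 20414 genes.

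The 8 genes, the lists and the tests were chosen with earlier results of these data known. In each tissue, genes averaging 1 FPKM or more were tested as log2(FPKM + 1) with limma 3.58.1 (R 4.3.3, intensity trend) between 3 estrus and 3 diestrus libraries, with Benjamini-Hochberg adjustment over all genes of that tissue. To be called, a gene had to change by 1 or more on the log2 scale with an adjusted p no higher than 0.05. The fold changes understate those of low genes. Hypothalamus and cerebrum were compared in 1 fit of 12 libraries with phase as a covariate. The scripts were tested on simulated data. All members were named in every tissue, and of the listed genes those called and those highest in hypothalamus. Listed genes past an unadjusted p in vein, Ucn and Ghrhr were named after their values were seen, as were single marker genes. Replicate numbers were not treated as pairs: the labels do not say that a number marks a mouse, and in 0 of 15 tissues did all 3 same-numbered libraries of the phases correlate above 0.1. Depth was approximated from the steps between low values of 726 short genes, with 52.7 to 75.5% of values within 0.2 of a whole read. Alternatives were a pseudocount of 0.1, no filter, median-ratio scaling, no trend, 1 fit of all 90 libraries, a replicate block, and leaving out each replicate. The labels give separate mice as replicates only by number, so p-values measure the spread between these samples.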

Additional observations from a re-analysis of the deposited data

How the results depend on the processing

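The 5 genes called between hypothalamus and cerebrum kept their calls under all alternatives run, and 0 gene and tissue pairs were called between phases under all but 1. That exception was 1 fit of all 90 libraries, in which the tissues share an estimate of the spread, with 4 member pairs called (Oxt 1.21, Avp 1.10 and Trh 1.18 in cerebrum and Ghrh 1.93 in uterus) and 3 pairs of listed genes (Chgb in duodenum, Cd38 in BAT and Sox6 in stomach). The replicate block, which fits the replicate number as if it paired the libraries, left the counts at 0 and 5 for members and at 0 and 12 for listed genes and changed no call of a member. Same-numbered hypothalamus and cerebrum libraries of a phase correlated at 0.02 to 0.22 in their deviations. Sst in vein turned from -0.02 to 0.57 with a pseudocount of 0.1 and to 0.058 with median-ratio scaling. Leaving out each replicate in turn kept member calls at 0 between phases and 5 in the brain, and gave 0 and 11 to 12 for listed genes. The sign turned within these ranges between phases: Oxt -0.39 to 0.36, Avp -0.15 to 0.21, Crh -0.40 to 0.24 and Ghrh -0.11 to 0.034 in hypothalamus, Crh -0.32 to 0.15 and Sst -0.047 to 0.32 in cerebrum, Oxtr -0.74 to 0.06 in BAT and -0.79 to 0.33 in uterus, and Sst -1.26 to 0.070 in stomach and -0.70 to 0.62 in vein. Between hypothalamus and cerebrum it turned for Oxtr (-0.10 to 0.13) and Crh (-0.40 to 0.0048). Ghrh in ovary and uterus and Avpr1a and Ghrh in BAT could not be tested without estrus replicate 3, since their means fell below the minimum.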
